A study of Homo sapiens with 16 samples.

Results

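Binding of JARID2 was compared with binding of EZH2 in THLE-2, an immortalised line of non-tumour human liver epithelial cells, by chromatin immunoprecipitation followed by sequencing (ChIP-seq). The members were all peaks, that is stretches where immunoprecipitated DNA exceeded its input control, on chromosomes 1 to 22 and X in 4 deposited lists: 5351 and 5526 peaks of JARID2 replicates 1 and 2, and 2081 and 3637 peaks of EZH2 replicates 1 and 2. These 16595 peaks stood among 173240 in the 8 lists of the series, which also held H3K27me3 in THLE-2 and JARID2 in HepG2, a liver carcinoma line. Each replicate had an input library of its own, and the design text of the series calls the replicates biological. Cells of all groups carried no labelled treatment or genotype, were fixed with 1% formaldehyde for 10 min, and their chromatin was cut to 200 to 500 bp. Peak lists hold no expression values, so the identity of the cells rests on the labels. A joint site was a place where a JARID2 peak of either replicate overlapped EZH2 peaks of both replicates by 1 bp or more, and there were 126 of them.

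EZH2 is the catalytic subunit of Polycomb repressive complex 2 (PRC2), which methylates histone H3 at lysine 27 and keeps developmental genes silent in cells that do not need them. JARID2 is an accessory subunit of one form of this complex. It lacks demethylase activity despite its jumonji domain, binds nucleosomes and GC-rich DNA, and helps place the complex on CpG islands in embryonic stem cells. The trimethylated product, H3K27me3, is spread over domains at genes such as the HOX clusters.

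Promoters that JARID2 and EZH2 peaks both reached are shown first, as examples of the sequence at joint gene ends. The window runs from 250 bases before to 50 after a gene's start, 5′ to 3′ on the gene's strand (RefSeq, GRCh38.p14), and capitals mark every CG dinucleotide. The 5 genes come first in the order used for naming joint genes among those with an entry in the promoter table and JARID2 and EZH2 peaks over the window. They are ATP6V1C2 (chr2:10721380-10721679, plus strand), CABP1 (chr12:120640376-120640675, plus), GSC (chr14:94770064-94770363, minus), PAX9 (chr14:36657318-36657617, plus) and HOXA13 (chr7:27200042-27200341, minus).
ATP6V1C2: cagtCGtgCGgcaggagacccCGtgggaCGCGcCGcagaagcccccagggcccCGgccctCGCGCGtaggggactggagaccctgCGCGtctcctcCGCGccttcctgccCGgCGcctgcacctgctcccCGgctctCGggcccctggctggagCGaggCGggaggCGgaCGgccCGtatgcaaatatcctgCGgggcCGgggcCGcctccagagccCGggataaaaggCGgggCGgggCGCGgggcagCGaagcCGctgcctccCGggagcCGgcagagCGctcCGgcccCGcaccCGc
CABP1: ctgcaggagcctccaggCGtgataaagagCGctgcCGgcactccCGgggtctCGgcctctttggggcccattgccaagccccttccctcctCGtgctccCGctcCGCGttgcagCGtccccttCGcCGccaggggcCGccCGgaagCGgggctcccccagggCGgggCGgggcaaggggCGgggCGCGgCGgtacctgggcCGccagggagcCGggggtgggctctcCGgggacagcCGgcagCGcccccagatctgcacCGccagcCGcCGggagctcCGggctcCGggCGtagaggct
GSC: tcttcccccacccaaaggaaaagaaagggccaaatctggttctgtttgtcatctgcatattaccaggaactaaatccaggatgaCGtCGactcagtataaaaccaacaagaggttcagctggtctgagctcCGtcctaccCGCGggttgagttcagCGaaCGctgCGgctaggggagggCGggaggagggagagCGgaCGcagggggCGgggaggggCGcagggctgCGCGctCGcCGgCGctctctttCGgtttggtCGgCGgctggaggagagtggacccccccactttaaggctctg
PAX9: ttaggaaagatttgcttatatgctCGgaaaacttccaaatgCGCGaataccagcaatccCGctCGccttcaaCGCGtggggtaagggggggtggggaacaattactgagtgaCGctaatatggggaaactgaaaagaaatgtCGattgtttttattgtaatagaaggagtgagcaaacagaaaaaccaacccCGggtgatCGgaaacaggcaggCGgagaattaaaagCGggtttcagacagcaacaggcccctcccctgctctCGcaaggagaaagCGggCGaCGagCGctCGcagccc
HOXA13: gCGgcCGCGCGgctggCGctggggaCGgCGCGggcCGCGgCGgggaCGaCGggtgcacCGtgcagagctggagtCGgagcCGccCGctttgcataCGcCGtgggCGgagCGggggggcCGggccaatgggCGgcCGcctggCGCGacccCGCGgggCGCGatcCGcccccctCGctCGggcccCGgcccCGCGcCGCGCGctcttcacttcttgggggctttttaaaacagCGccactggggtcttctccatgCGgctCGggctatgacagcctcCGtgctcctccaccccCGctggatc
EZH2 peaks of both replicates covered all 300 bases of each of these windows. The JARID2 peaks came from replicate 2 and covered 300 bases at ATP6V1C2, 97 at CABP1, 25 at GSC, 91 at PAX9 and 133 at HOXA13, and at all 5 genes the JARID2 summit lay outside the printed window. The windows differed in composition: HOXA13 held 44 CG dinucleotides at 76.3% G+C, ATP6V1C2 39 at 77.7%, CABP1 32 at 76.7%, GSC 21 at 60.3%, and PAX9 19 at 51%.

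Over all promoters in the table, which matched 15813 of 19974 protein-coding genes, 19 were covered in part by JARID2 of either replicate and EZH2 of both. Their median G+C was 71.7%, against 69.7% at 590 promoters with EZH2 and no JARID2, 67.7% at 538 with JARID2 and no EZH2, and 62.7% at all promoters. The ratio of observed to expected CG dinucleotides had a median of 0.831, 0.821, 0.893 and 0.763 in the same order. On either strand, GGGCGG, the core of the site that SP/KLF factors bind, lay in 17 of the 19 (89.5%), against 74.6% with EZH2 alone, 72.5% with JARID2 alone and 58.5% of all promoters. CGCGCG lay in 9 of the 19 (47.4%), against 37.6%, 35.5% and 22.3%, and GAGAGA in 2 (10.5%), against 23.6%, 16% and 21.1%. Among the printed windows, GGGCGG occurred 4 times at CABP1 and at HOXA13, 2 times at GSC and 1 time at ATP6V1C2, and these letters were not in the PAX9 window. GGGCGG and CGCGCG themselves hold CG and so move with G+C. With 19 promoters these shares are descriptions, and a match is not a bound site.

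The 4 lists differed in depth and in the kind of peak. The immunoprecipitated libraries held 11.7 and 13 M tags after filtering for JARID2 and 29.6 and 32.4 M for EZH2, and depth and target cannot be told apart. The median JARID2 peak held 13 tags in replicate 1 and 14 in replicate 2, against 323 and 44 for EZH2. The JARID2 replicates shared few places with each other: 55 of 5351 peaks (1.03%; 95% Wilson interval 0.791 to 1.34%) and 56 of 5526 (1.01%; 0.781 to 1.31%) overlapped a peak of the other replicate, against 1314 of 2081 (63.1%) and 1345 of 3637 (37%) for EZH2. The authors' false discovery rate, estimated by the peak caller from the input swapped with the sample, had a median of 15.8% and 44.2% in the JARID2 lists and of 100% in both EZH2 lists. Among the libraries used as other readouts, H3K27me3 replicate 1 and HepG2 JARID2 replicate 2 stood apart from their partners, and the readouts are therefore also given by replicate. Wilson intervals cover counting error only, and peaks of a library are not replicates.

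Few JARID2 peaks lay on EZH2 peaks. Of the JARID2 replicate 1 peaks, 75 (1.4%; 1.12 to 1.75%) overlapped EZH2 replicate 1 and 89 (1.66%; 1.35 to 2.04%) overlapped EZH2 replicate 2. Of the JARID2 replicate 2 peaks, 80 (1.45%; 1.17 to 1.8%) overlapped EZH2 replicate 1 and 91 (1.65%; 1.34 to 2.02%) overlapped EZH2 replicate 2. The mean over the 4 library pairs was 1.54% ± 0.134 (SD, 4 pairs that share libraries), and 2.47% among peaks with a score of at least 100 (10 times the negative log10 of p), where each pair had 1 or 3 overlaps. The shares of both JARID2 libraries lay within each other's counting intervals. Each JARID2 library overlapped EZH2 at least as often as its own replicate, with intervals that met for EZH2 replicate 1. EZH2 peaks take up more sequence, however: the JARID2 lists covered 0.125% and 0.132% of the effective genome. EZH2 peaks covered 0.273% and 0.313% of the effective genome size of 2700 Mb that the peak caller was given. Seen from EZH2, 73 peaks of replicate 1 (3.51%) met JARID2 replicate 1 and 80 (3.84%) met JARID2 replicate 2, and of EZH2 replicate 2 the numbers were 86 (2.36%) and 89 (2.45%).

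**Figure D1:**
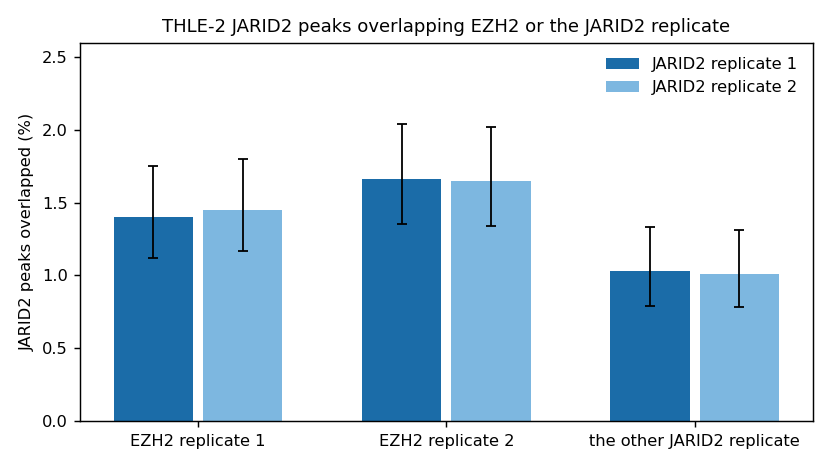
Share of the peaks of each THLE-2 JARID2 replicate (in percent, y axis) that overlapped by 1 bp or more a peak of EZH2 replicate 1, EZH2 replicate 2 or the other JARID2 replicate. Bars are shares and lines are 95% Wilson intervals; the shares with EZH2 lie between 1.4% and 1.66%, and those with the other JARID2 replicate are 1.03% and 1.01%.

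The density of JARID2 summits, the positions of highest tag pile-up, was highest inside EZH2 peaks and fell off at their edge. JARID2 replicate 1 had 72 summits in the 7.373 Mb of EZH2 replicate 1 (9.77 per Mb) and 86 in the 8.456 Mb of replicate 2 (10.2 per Mb), against 1.96 per Mb outside each of them. JARID2 replicate 2 had 76 (10.3 per Mb) and 82 (9.7 per Mb), against 2.02 per Mb outside. In the first 1 kb beyond the EZH2 edge the density was already down to between 2.26 and 3.15 per Mb over the 4 pairs. It was 2.38 to 2.64 per Mb from 1 to 10 kb, 2.2 to 2.45 from 10 to 100 kb and 1.89 to 1.96 beyond 100 kb.

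**Figure D2:**
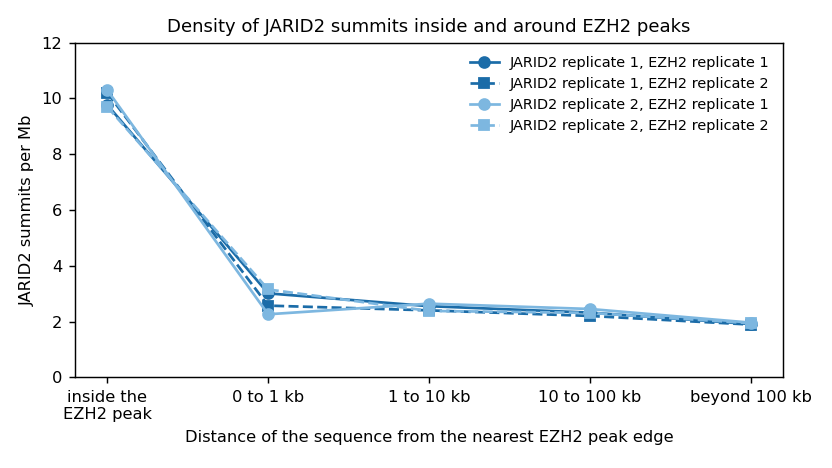
JARID2 summits per Mb of sequence (y axis) inside EZH2 peaks and in sequence at growing distance from the nearest EZH2 peak edge (x axis), 1 line per pair of a JARID2 and an EZH2 library. All 4 lines start between 9.7 and 10.3 per Mb inside EZH2 and are at 3.15 per Mb or less in the first 1 kb outside.

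Gene ends are dense in peaks of both proteins, so the density was also counted by that feature, with a gene end taken as 2 kb on either side of an annotated end of a protein-coding gene. JARID2 replicate 1 had 12.9 summits per Mb in EZH2 peaks of both replicates at gene ends (38 summits) and 9.56 in such EZH2 peaks elsewhere (24 summits). It had 4.66 per Mb at gene ends without EZH2 and 1.81 per Mb in all other sequence. For JARID2 replicate 2 the values were 16.6 (49 summits), 5.18 (13 summits), 4.94 and 1.87 per Mb. JARID2 density was thus higher with EZH2 than without it at gene ends in both libraries; away from gene ends it was higher in both too, on 24 and 13 summits. Whether open chromatin or copy number moves with these densities was not tested.

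Most JARID2 peaks lay far from EZH2, as did most of the sequence. The median distance from a JARID2 summit to the nearest EZH2 summit was 507 and 288 kb for JARID2 replicate 1 (EZH2 replicates 1 and 2) and 537 and 287 kb for replicate 2, and the distance to the nearest EZH2 edge was 505, 287, 535 and 286 kb. Within 1 kb of an EZH2 summit lay 41 and 53 summits of JARID2 replicate 1 (0.766% and 0.99%) and 51 and 64 of replicate 2 (0.923% and 1.16%). The shorter distances to EZH2 replicate 2 go with its longer list. Of the effective genome of 2700 Mb, 2372 Mb lay more than 100 kb from an EZH2 replicate 1 edge and 2150 Mb from a replicate 2 edge. Beyond that distance lay 84.6% and 75.9% of the summits of JARID2 replicate 1, and 84.3% and 75.7% of those of replicate 2.

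Where the peaks overlapped, JARID2 lay inside the EZH2 peak as a narrow peak in a wide one. The JARID2 summit was inside the EZH2 peak in 96%, 96.6%, 95% and 90.1% of overlaps (replicate 1 with EZH2 replicates 1 and 2, then replicate 2 in the same order), and the whole JARID2 peak was inside in 81.3% to 90%. A narrow peak that overlaps a much wider one mostly falls inside it, so the widths alone make such shares high. They were not compared with random placement. The median distance between the summits of the proteins was 915, 800, 637 and 557 bp, with a mean of 727 ± 161 bp (SD over the 4 pairs) and of 144 bp among the few overlaps with a score of at least 100. The EZH2 peaks at these places had a median width between 3843 and 4306 bp, and the JARID2 summit lay a median of 1234 to 1416 bp from the nearest edge. JARID2 replicate 2 lay nearer to the EZH2 summit than replicate 1: 43.8% and 40.7% of its overlaps were within 500 bp, against 24% and 36%.

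**Figure D3:**
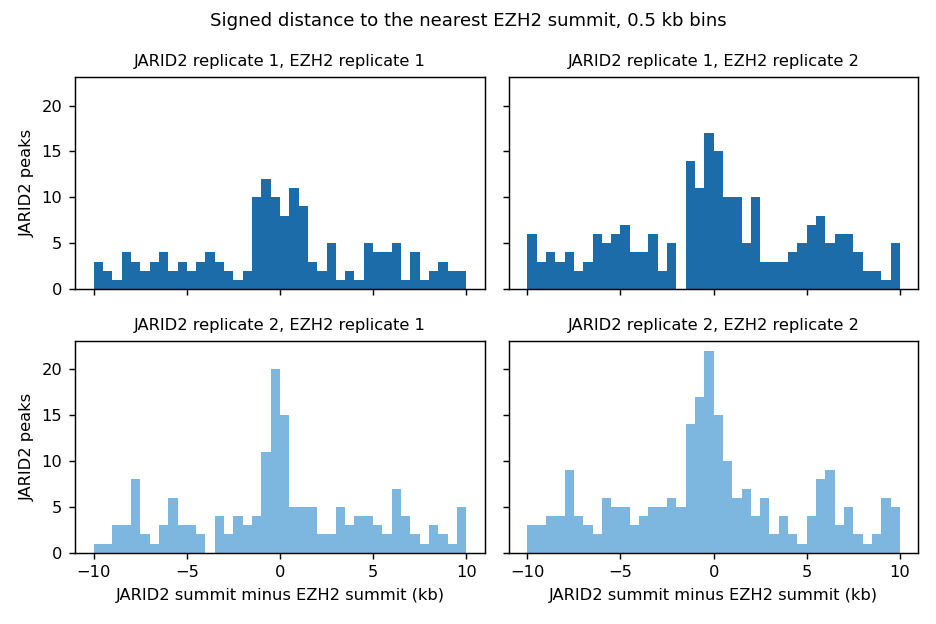
Number of JARID2 peaks (y axis) by signed distance in kb from the nearest EZH2 summit (x axis, bins of 0.5 kb, up to 10 kb either way), 1 panel per library pair. In all 4 panels the tallest bins lie near 0, over a low level that runs out to 10 kb.

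The EZH2 peaks that met JARID2 were wide ones. In EZH2 replicate 1 the median width was 4152 bp with JARID2 replicate 1 and 4306 bp with replicate 2, against 2974 and 2970 bp without. In EZH2 replicate 2 it was 4134 and 3818 bp, against 971 and 971.5 bp. The share of EZH2 peaks that met JARID2 replicate 1 went from 0.576% in the narrowest quartile to 6.54% in the widest for EZH2 replicate 1, and from 0.22% to 6.05% for replicate 2. A wide peak offers more sequence, and per Mb of EZH2 peak over the 4 pairs the widest quartile held 8.95 to 10.6 overlaps, against 4.03 to 10.9 in the narrowest. The strength of these EZH2 peaks depended on the measure. The fold enrichment of EZH2, its tags over the input's, was no higher with JARID2. Its median was 7.97 and 8.06 against 8.15 and 8.12 in replicate 1, and 5.93 and 6.21 against 6.66 in replicate 2. The score was higher with JARID2. In EZH2 replicate 1 its median was 263.7 and 280.4, against 119 and 118.5 without. In EZH2 replicate 2 it was 278.8 and 313.2, against 69.47 and 69.59. Median tags were higher too, at 502 and 553.5 against 313.5 and 311 in replicate 1. In replicate 2 they were 553 and 552, against 41. Neither score nor tags were corrected for width.

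The rank of the JARID2 peaks on EZH2 within their lists depended on the measure. In replicate 1 their median fold enrichment was 7.79 and 7.8, against 9.09 for peaks off EZH2, and the share on EZH2 replicate 1 went down from 2.84% in the lowest quartile of fold enrichment to 0.598% in the highest. In replicate 2 the medians were 8.31 on and off EZH2, and the shares by quartile lay between 1.3% and 1.52% for EZH2 replicate 1 and between 1.38% and 1.88% for EZH2 replicate 2. By score they ranked higher, with medians of 60.4 and 61.3 against 57.5 in replicate 1 and 61.6 and 61.7 against 56.6 in replicate 2, and they held a median of 16 tags against 13 and 14. Their place did differ: 61.3% to 71.2% lay at a coding gene end, against 12.5% to 12.8% of the other JARID2 peaks.

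As whole lists, the proteins differed in position, width and overlap with H3K27me3, in the same direction in every library. At coding gene ends lay 13.4% and 13.6% of JARID2 peaks, against 54.6% and 34.9% of EZH2 peaks. The median JARID2 peak was 598 and 605 bp wide, against 3012 and 1032 bp for EZH2. H3K27me3 of either replicate was overlapped by 13.3% and 10.3% of JARID2 peaks (mean 11.8%), against 68% and 52% of EZH2 peaks (mean 60%). The H3K27me3 lists covered 3.39% and 5.66% of the effective genome. A wide peak offers more sequence to a 1 bp overlap, and the shares at gene ends and at H3K27me3 were not corrected for width. The differences, JARID2 minus EZH2, were -31.2 percentage points, -1420 bp and -48.1 percentage points. The last was -47.6 points with H3K27me3 replicate 2 alone and -5.96 points with replicate 1 alone (means of 5.2% and 11.2%). In each case the 2 libraries of one protein did not overlap the 2 of the other. An exact two-sided permutation of 4 libraries cannot go below p = 0.33, and each of the 3 tests gave that smallest value, also after Benjamini-Hochberg adjustment over the 3.

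The 126 joint sites were spread over all 23 chromosomes analysed. JARID2 came from replicate 1 alone at 62 of them, from replicate 2 alone at 62 and from both at 2. At a coding gene end lay 96 (76.2%), at the end of a long noncoding RNA gene only 8 (6.35%), inside a coding gene away from its ends 9 (7.14%) and outside all of these 13 (10.3%). The JARID2 peaks there held 11 to 44 tags in replicate 1 (median 17) and 11 to 37 in replicate 2 (median 16), and their fold enrichment ran from 4.08 to 13.8 (median 7.65) and from 5.02 to 12.5 (median 8.31). The authors' false discovery rate at these JARID2 peaks ran from 13.5% to 23.5% in replicate 1 and from 0 to 46.2% in replicate 2. For the EZH2 peaks at most joint genes that rate was 100%, as at FOXA2 in both EZH2 replicates. A few were lower, such as 14.3% at SP5 in EZH2 replicate 1.

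Neither site with JARID2 in both replicates lay at a coding gene end. The first, chr1:119000509-119001544, lay at the lncRNA gene LOC105378933, 11516 bp from the nearest end of TBX15, a T-box factor of skeletal development. Its JARID2 fold enrichment was 8.03 and 5.32, its EZH2 fold enrichment 5.97 and 4.79, and no H3K27me3 peak was called over it. The second, chr6:108117183-108118273, lay at the lncRNA gene LOC124901368, 42987 bp from OSTM1, with JARID2 at 6.3 and 10.7 and EZH2 at 9.12 and 6.21, and an H3K27me3 replicate 2 peak over it. The JARID2 summits of the replicates were 515 bp apart at the first site and 33 bp apart at the second.

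More often, JARID2 of both replicates fell on one EZH2 peak at different places. Of the EZH2 replicate 1 peaks, 146 (7.02%) met JARID2 of either replicate and 7 (0.336%) met both; of the EZH2 replicate 2 peaks the numbers were 169 (4.65%) and 6 (0.165%). Beside the pair of sites at lncRNA genes, these peaks lay at KIAA1549L, PAX9, FOXA2, GSC2 and, in EZH2 replicate 1, BARX1. At none of these 5 genes did the JARID2 peaks of the replicates overlap each other: their summits were 1577 bp apart at KIAA1549L, 3421 bp at PAX9, 1827 bp at FOXA2, 2106 bp at GSC2 and 5430 bp at BARX1.

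Genes were then counted by the peaks at either of their ends, so a peak at a gene's far end counts like a peak at its start. JARID2 of either replicate was at an end of 1644 of 19974 coding genes (8.23%), with 840 in replicate 1 (4.21%) and 875 in replicate 2 (4.38%). JARID2 of both was at 71 (0.355%) and EZH2 of both was at 975 (4.88%). Of the 975, 121 (12.4%) had JARID2 of either replicate, against 1477 of 18459 genes without any EZH2 (8%). An overlapping JARID2 and EZH2 peak, as defined for the joint sites, was at an end of 99 genes (0.496%). That number was 55 without JARID2 replicate 1, 47 without JARID2 replicate 2, and 2 among peaks with a score of at least 100. Both proteins in both replicates were at the ends of 6 genes (0.03%): FOXA2, GSC2, KIAA1549L, LOC124903566, NGB and RTN4RL2. In FOXA2 and KIAA1549L alone all 4 libraries had their peak at the same end. When JARID2 had to be in only 1 library, the 6 became 70 without JARID2 replicate 1 and 57 without JARID2 replicate 2.

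FOXA2, a forkhead factor that opens chromatin in endoderm and liver, stood first by the number of library pairs and fold enrichment. JARID2 replicate 1 had a peak at chr20:22586549-22587432 with 20 tags and a fold enrichment of 13.8, and replicate 2 one at chr20:22584831-22585746 with 20 tags and 7.36. EZH2 peaks spanned chr20:22581383-22588015 at 10.7 and chr20:22581144-22587671 at 7.7. Both JARID2 peaks were thus on the same EZH2 domain, with the replicate 2 peak over the gene end at 22585490 and the replicate 1 peak beyond it. At KIAA1549L the JARID2 fold enrichment was 8.47 and 5.64 within EZH2 peaks at 8 and 10.7. At GSC2, a goosecoid-related homeobox gene, it was 8.4 and 6.08 with EZH2 at 12.6 and 7.32, and the replicate 1 peak touched the EZH2 replicate 1 peak only at its edge.

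At the other 3 of the 6 genes, at least 1 JARID2 peak lay at the opposite end from EZH2. At RTN4RL2, a Nogo-receptor-like protein of neurons, the EZH2 peaks (7.31 and 6.21) lay over the end at 57460528. A JARID2 replicate 2 peak at chr11:57459439-57460018 (7.53) lay within them, 207 and 83 bp from their summits, while the replicate 1 peak (6.93) and a further replicate 2 peak (8.47) lay by the other end at 57477534. At NGB, which encodes neuroglobin, JARID2 (11.5 and 8.31) lay at one end and EZH2 (9.29 and 8.98) at the other, and no peaks overlapped. At LOC124903566 the replicate 1 JARID2 peak (7.02) lay within EZH2 (6.61 and 4.89) at one end and the replicate 2 peak (9.35) at the other.

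The first 20 joint genes in that order included many developmental regulators, with JARID2 from replicate 1 alone at 5, from replicate 2 alone at 12 and from both at 3. DBX1, a homeobox gene of spinal interneurons, had JARID2 at 11.4 (replicate 2) and EZH2 at 19.95 and 7.77. OLIG2, the bHLH factor of oligodendrocytes, had a JARID2 replicate 2 peak with 27 tags at 9.41, and its summit lay 44 and 160 bp from those of EZH2 (15.2 and 11.1). SP5 and SP9, zinc finger factors of the SP family, had JARID2 at 9.41 (replicate 2) and 9.24 (replicate 1). BARX1, a homeobox gene of stomach and teeth, had 9.96, and ALX4, a homeobox gene of the face and skull, had 9, both in replicate 2. PTF1A, the bHLH factor of the pancreas, had 10.4 in replicate 2, and SOX3, an HMG-box factor of neural progenitors, 9.9 in replicate 1. At these other genes the summits lay further from those of EZH2 than at OLIG2. Distances were 4778 and 4785 bp at DBX1, 2412 and 2392 bp at SP5, 1424 and 1311 bp at SP9, and 397 and 2797 bp at BARX1. They were 602 and 197 bp at ALX4, 1395 and 1138 bp at PTF1A, and 1095 and 1712 bp at SOX3.

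Genes of the cell surface, matrix and neurons were also among these 20. LAMA1, a laminin chain, had JARID2 replicate 2 at 12.5, with the summit 95 and 4 bp from those of EZH2 (9.33 and 5.41). CACNA2D2, a calcium channel subunit, had JARID2 replicate 1 at 10.8, 110 and 26 bp from the EZH2 summits. INSYN1, a protein of inhibitory synapses, had replicate 2 at 9.88, 94 and 58 bp away. NPNT, the matrix protein nephronectin, had 10.3 in replicate 1, and ATP6V1C2, a subunit of the vacuolar proton pump, 10.6 in replicate 2. GDF6, a BMP-family ligand, had 9.78 in replicate 1. ELAVL3, a neuronal RNA-binding protein, and ZNF653 share a single JARID2 replicate 2 peak at 11.3. Its summit lay 23914 bp from the ZNF653 start, so ZNF653 counts through its far end only. Distances to the EZH2 summits were 1106 and 1601 bp for that peak, 916 and 619 bp at NPNT, 33 and 512 bp at ATP6V1C2, and 1370 and 2028 bp at GDF6. Over all joint peaks, 3 of 64 in JARID2 replicate 1 and 7 of 64 in replicate 2 had their summit within 200 bp of the summits of both EZH2 replicates.

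By gene list, joint peaks were more frequent at developmental regulators than over all coding genes, as was EZH2, which a joint peak requires. Of 39 HOX genes, 24 (61.5%) had EZH2 of both replicates and 5 (12.8%) a joint peak, against 4.88% and 0.496% of all coding genes. Of 200 other developmental transcription factors, 135 (67.5%) had EZH2 and 22 (11%) a joint peak. JARID2 of either replicate, with or without EZH2, was at 7 HOX genes (17.9%) and 28 of the other factors (14%), against 8.23% of all coding genes. Among members without any EZH2 it was at 0 of 7 HOX genes and 2 of 36 other factors (5.56%), against 8% of all such genes. Of the members with EZH2 of both replicates, JARID2 of either replicate was at 5 of 24 HOX genes (20.8%) and 24 of 135 other factors (17.8%), against 12.4% of all genes with such EZH2. It was at 3 of 14 WNT genes, 3 of 16 secreted ligands and 2 of 6 liver factors, but at 3 of 37 neuronal genes (8.11%), 1 of 8 epithelial-mesenchymal genes and 1 of 5 Polycomb genes. The lists were chosen with earlier results of these data known, and no test was made on them.

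The HOX genes with a joint peak were HOXA11, HOXA13, HOXB2, HOXC13 and HOXD1, which help pattern the body axis and limbs. HOXA13 had JARID2 replicate 2 at 8.26, 23 and 190 bp from the EZH2 summits, and HOXD1 replicate 2 at 9.35, 16 and 503 bp away. HOXC13 had replicate 2 at 9.35, 58 and 546 bp away. HOXA11 and HOXB2 had replicate 1 at 6.32 and 8.32, each over 1 kb from the EZH2 summits. Across whole clusters, JARID2 replicates 1 and 2 had 2 and 3 peaks in HOXA, 1 and 0 in HOXB, 2 and 1 in HOXC, and 0 and 1 in HOXD. EZH2 replicates 1 and 2 had 10 and 14, 7 and 6, 7 and 12, and 12 and 13.

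Among 29 liver transcription factors, 6 (20.7%) had EZH2 of both replicates and 2 (6.9%) a joint peak: FOXA2 and ONECUT1, a hepatocyte nuclear factor, with JARID2 replicate 1 at 8.76. Of 51 WNT genes, 3 had one (5.88%): WNT11, a ligand, at 7.01 and RSPO2, an R-spondin, at 7.6 in replicate 1, and SFRP5, a secreted inhibitor, at 8.96 in replicate 2. Of 59 secreted ligands (BMP, TGF-beta, FGF, hedgehog), 3 had one (5.08%): GDF6, BMP3 at 7.28 in replicate 2, and FGF19, an FGF that signals from gut to liver, at 8.79 in replicate 1. Of 108 neuronal channels and receptors, 37 (34.3%) had EZH2 and 3 (2.78%) a joint peak: the adrenergic receptor ADRA2A at 7.63 (replicate 2), the GABA receptor subunit GABBR2 at 6.93 and the glycine transporter SLC6A5 at 9.23 (both replicate 1). Of 52 epithelial-mesenchymal genes only OVOL1, an epithelial zinc finger factor, had one (1.92%), at 8.31 in replicate 2.

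In 4 lists no gene had a joint peak; at 0.496% of all coding genes, lists of this size would hold few or none. None of 116 hepatocyte function genes, 78 cytosolic ribosomal protein genes or 37 blood and endothelial markers had EZH2 of both replicates. JARID2 of either replicate was at 5 (4.31%), 11 (14.1%) and 1 (2.7%) of them, against 8.23% of all coding genes. Of 45 Polycomb genes, 5 (11.1%) had EZH2 and 6 (13.3%) JARID2 of either replicate, without a joint peak. EZH2, SUZ12 and EED, the core subunits of PRC2, and CDKN2A and CDKN2B, cell cycle inhibitors often held silent by it, had no peak called at their ends in any of the 4 lists. At JARID2 itself, JARID2 replicate 1 had a peak at 6.88 and the other 3 libraries had none.

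**Figure D4:**
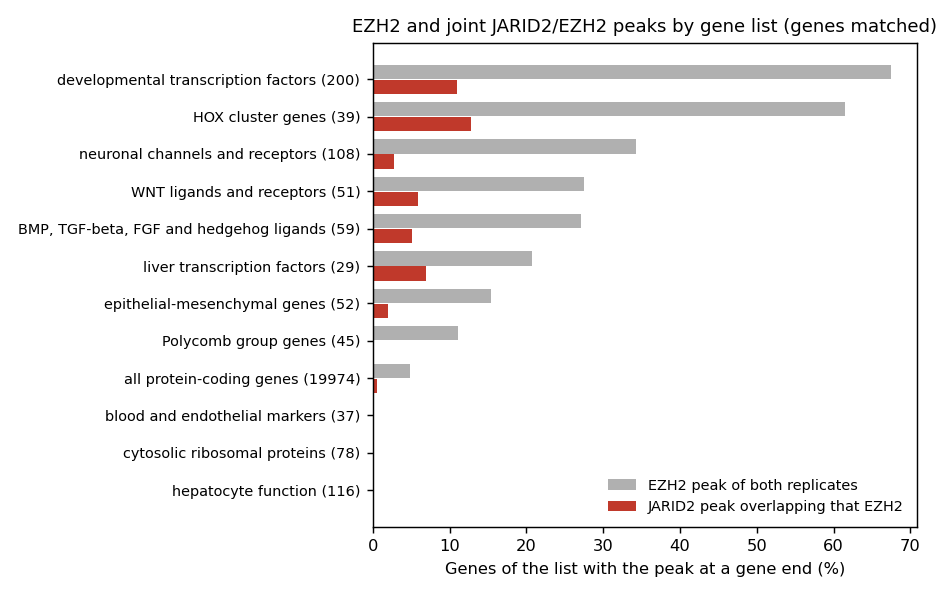
Share of the genes of each list (in percent, x axis; number of genes matched in brackets) with an EZH2 peak of both replicates at a gene end (grey bars) and with a JARID2 peak overlapping such EZH2 peaks (red bars). Developmental factors and HOX genes are highest for both, at 67.5% and 61.5% for EZH2 and 11% and 12.8% for joint peaks, and all coding genes are at 4.88% and 0.496%.

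H3K27me3 lay over most joint sites in its replicate 2 and almost none in its replicate 1. Of the 126 sites, 91 (72.2%) overlapped a replicate 2 peak and 1 (0.794%) a replicate 1 peak. By library, 49 of the 64 JARID2 replicate 1 peaks at joint sites (76.6%; 64.9 to 85.2%) and 43 of the 64 replicate 2 peaks (67.2%; 55 to 77.4%) overlapped H3K27me3 replicate 2. Where EZH2 came from 1 replicate the shares were 63.9% and 51.2%, and off EZH2 they were 10.5% and 7.92%. H3K27me3 replicate 1 ran the other way, with 1.56% and 0% at joint sites (1 and 0 of 64), 8.33% and 9.3% where EZH2 came from 1 replicate, and 6.02% and 4.43% off EZH2. In H3K27me3 replicate 2, the step between JARID2 peaks on and off EZH2 was larger than the difference between the JARID2 replicates. For EZH2 peaks of both replicates, the overlap with H3K27me3 replicate 2 was lower with JARID2 than without, with counting intervals that overlapped: 71.1% (62.5 to 78.4%) of 121 against 77.6% (75.2 to 79.9%) of 1193 in EZH2 replicate 1, and 73.1% of 119 against 77.8% of 1226 in EZH2 replicate 2. With H3K27me3 replicate 1 the shares were 1.65% (0.454 to 5.83%) against 5.53% (4.37 to 6.98%) and 1.68% against 5.71%, on 2 peaks with JARID2 in each list.

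**Figure D5:**
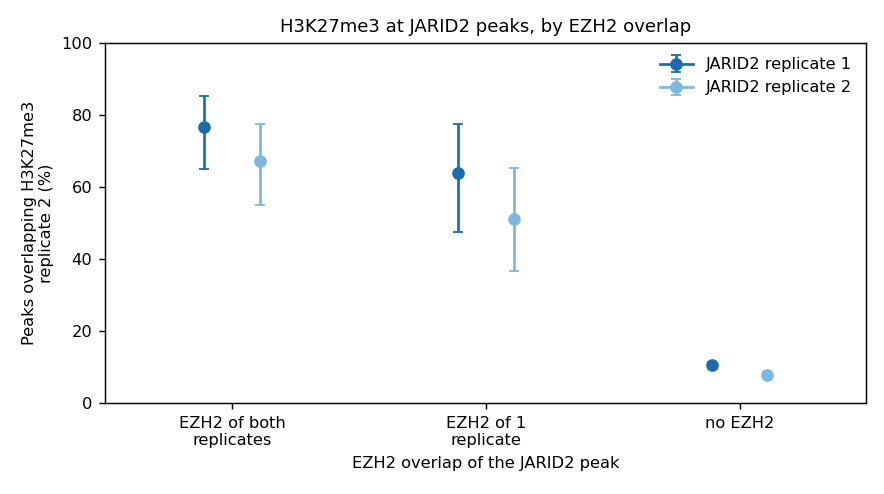
Share of JARID2 peaks (in percent, y axis) overlapping H3K27me3 replicate 2 in THLE-2, by whether the JARID2 peak overlapped EZH2 of both replicates, of 1 or of none (x axis). Points are shares for each JARID2 replicate with 95% Wilson intervals; they go from 76.6% and 67.2% with EZH2 of both to 10.5% and 7.92% with none.

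Counted by gene, the readouts at joint genes were set beside those at other genes with EZH2. H3K27me3 replicate 2 was at the ends of 79 of the 99 joint genes (79.8%) and of 722 of 876 other EZH2 genes (82.4%), against 19.1% of all coding genes, and replicate 1 at 16.2% and 16.8%, against 7.7%. In HepG2, JARID2 replicate 1 was at 44 of the 99 (44.4%) and at 45.5% of the other EZH2 genes, against 22.5% of all coding genes, and HepG2 JARID2 replicate 2 was at 0 of the 99, near its 0.716% of all coding genes. HepG2 JARID2 replicate 1 was at GSC2, ATP6V1C2, SP5, CACNA2D2, HOXD1, LAMA1, GDF6, ELAVL3 and ZNF653 among the first 20. Of these 20 genes, 17 had H3K27me3 replicate 2, the others being ATP6V1C2, BARX1 and ALX4. Over the joint sites themselves, HepG2 JARID2 replicate 1 overlapped 34 (27%), and 26 (20.6%) had both that peak and H3K27me3 replicate 2. HepG2 JARID2 replicate 1 overlapped 4.1% and 4.6% of the THLE-2 JARID2 peaks off EZH2 (replicates 1 and 2). Of the EZH2 peaks of both replicates without JARID2, it overlapped 37.4% and 36.5% (EZH2 replicates 1 and 2). Of those with JARID2, it overlapped 42.15% of 121 and 42.02% of 119. The counting intervals overlapped, at 33.7 to 51.1% with JARID2 against 34.7 to 40.2% without in EZH2 replicate 1. Whole EZH2 peaks are wider than the joint sites. The EZH2 peaks with JARID2 were also wider than those without, with medians of 4648 and 4360 bp against 3758 and 3566 bp.

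The joint JARID2 summits were also nearer to gene starts than the rest. Within 1 kb of a start in the RefSeq promoter table lay 15 of 59 joint summits in JARID2 replicate 1 (25.4%) and 21 of 63 in replicate 2 (33.3%), leaving out chromosomes without an entry. Of JARID2 summits without EZH2, 280 of 5045 (5.55%) and 371 of 5191 (7.15%) were that near. For all EZH2 summits the shares were 27.2% and 16.7%.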

How the data were processed

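Each of the 8 deposited peak lists compares an immunoprecipitated library with its input. Per the submitters' processing notes, the tools included cutadapt, Bowtie2 and MACS 1.4.2 and the genome build was GRCh38. Per the file headers, peaks were called with MACS, the p cutoff was 1e-05, 1 tag was kept per position and the effective genome size was 2700 Mb, and peaks were called for each replicate. The deposited values used were each peak's tag count, its score (10 times the negative log10 of p), its fold enrichment (a ratio to the local input), its false discovery rate in percent, and its width and summit offset, all as the authors' caller wrote them.

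Peaks on chromosomes 1 to 22 and X were intersected with Python 3.11.15, numpy 2.4.6 and pandas 2.3.3; scipy 1.17.1 gave Wilson intervals, and an overlap was 1 bp or more. The overlap code was checked on simulated intervals. Gene ends came from RefSeq GRCh38 (19974 protein-coding genes). Joint genes were ordered by the number of the 4 library pairs overlapping there, then by the worse of their JARID2 and EZH2 fold enrichment percentiles. The text names genes with both proteins in both replicates, the first 20 in that order, up to 4 members of each list, and fixed genes (HOX clusters, CDKN2A, CDKN2B, EZH2, JARID2, SUZ12, EED); printed promoters followed the same order. Genes at EZH2 peaks holding JARID2 of both replicates were named after their values were seen. Members, lists and rules were chosen with earlier results of these data known. Alternatives were a score of at least 100, equal numbers of top peaks, other windows and overlaps, leaving out libraries and same-numbered pairs. Peaks on other sequences (5 to 53 per list) were left out. Depth was 11.7 to 32.4 M tags, and no reads or signal tracks were used. Where MACS called no peak, absence of binding is not shown.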

Additional observations from a re-analysis of the deposited data

How the results depend on the processing

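The differences in gene-end share, width and H3K27me3 overlap kept their direction under every alternative run. Leaving out a library gave -41.1 to -21.4 percentage points, -2410 to -430.5 bp and -56.1 to -40.2 percentage points, and H3K27me3 replicate 1 alone gave -5.96 points. The levels themselves moved. Among peaks with a score of at least 100, the mean gene-end share was 45.3% for JARID2 and 71.3% for EZH2, against 13.5% and 44.7% of all peaks. The mean overlap with H3K27me3 was then 7.55% for JARID2 and 78.5% for EZH2. With peaks of a score of at least 100 (69 and 86 JARID2 peaks), 2.47% of JARID2 peaks overlapped EZH2, on 1 to 3 overlaps per pair, the median summit distance was 144 bp, 0 genes had both proteins in both replicates, and 2 genes (OLIG2 and STUM) had a joint peak. With the 2081 top peaks of each list the share was 2.09% and 51 genes had a joint peak. Genes with both proteins in both replicates numbered 13 with 5 kb windows and 2 where all peaks had to be at the same gene end; leaving out a library, which asks for fewer peaks, gave 6 to 70. Joint genes were 47 to 123 without 1 library: 55 without JARID2 replicate 1 and 47 without JARID2 replicate 2, each a part of 99 because either replicate counted. The share was 1.43% to 1.66% and the distance 597 to 857.5 bp without 1 library. As replicate block, same-numbered library pairs alone gave 1.52% and 736 bp; the other pairs, an alternative chosen after seeing the data, gave 1.55% and 718.5 bp. The labels do not say that a number pairs samples across proteins.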

Other observations

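Of the 126 joint sites, 30 (23.8%) were not at a coding gene end, and 16 of these lay within 5 kb of one. Chosen after their values were seen, genes nearest to these sites included LHX8, ZIC5, PAX9, EOMES, HMX1, OTP, NKX2-5, PRDM13, HOXA3, EN2, BARX1 and NR5A1, which encode transcription factors of development, the Polycomb gene BMI1, the RNA-binding factor gene LIN28B and IGLON5, a neuronal adhesion gene. H3K27me3 replicate 2 overlapped 22 of the 30. These genes are outside the count of 99 joint genes unless another joint peak lay at their ends, as at PAX9, NKX2-5 and BARX1. Only the outermost annotated ends of a gene were used. The start of LIN28B in the promoter table lies inside them, and the middle of the joint peak lay 3556 bp from the nearest coding end. LIN28B is thus among the 19 promoters with both proteins but not among the 99 genes.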
